A study of Mus musculus with 2 samples.

Results

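The interferon-stimulated genes described here are 34 genes that cells switch on, or hold ready, in the response to interferons. They were chosen by name, with earlier results of these data known. Every non-control probe whose gene name in the scanner files is one of the 34 was taken. This gave all 34 of the 27343 genes on the array, with 51 probes. The samples were mouse lenses at postnatal day 1. One came from a conditional knockout (CKO) of Msx2, a homeobox transcription factor gene, deleted by Le-Cre, and the other from wild type, labelled Msx2 WT. Le-Cre is a transgene under Pax6 control elements that makes Cre recombinase in the lens and in other tissues that derive from the surface ectoderm of the eye. The labels name no other allele or agent. Whether Le-Cre was present in the wild type is not said, nor how many animals went into each RNA. Each genotype had 1 one-colour array. No difference below therefore has a replicate check or a p-value, and the number of arrays limits the precision.

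Type I interferons signal through the receptor chains Ifnar1 and Ifnar2 to a complex of Stat2, Irf9 and a further STAT protein, which binds an interferon-stimulated response element (ISRE) in the promoters of its target genes. Interferon gamma acts through another receptor and a STAT dimer that binds a gamma-activated site (GAS). The products block viruses at entry, at the reading of viral RNA and at release, and others amplify the response. Low levels of many of these genes are held in resting tissue, and macrophages are rich in several of them.

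Signals are given in intensity units of the scanner software's processed signal, with that software's own error for the spot. A gene counts as measured if the software marked a probe of it as well above background, and not as saturated, on each of the 2 arrays, and it takes its brightest such probe. Each array was scaled to its 75th percentile, at 203 units in CKO and 201 in wild type. The deleted gene checked the labels: the Msx2 probe gave 371 units in wild type and 4.62 in CKO, not well above background, a deficit in CKO of at least 22.6-fold. Markers of the lens were bright, and all 9 fibre cell markers, including the crystallin genes Cryaa and Cryba1, were measured on both arrays.

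Of the 34 genes, 17 (50%) were well above background on both arrays, 6 (17.6%) in CKO only, 1 (2.94%) in wild type only and 10 (29.4%) on neither. Over all genes of the array these shares were 52%, 3.91%, 3.15% and 40.9%. Among the 17 measured genes, 8 exceeded wild type by 2-fold or more in the CKO lens, namely Mx2, Gbp2, Bst2, Ifitm1, Irf1, Ifitm3, Ifi35 and Rtp4. No measured member was lower by 2-fold or more. Of all 14221 measured genes, 4.11% passed 2-fold upwards and 3.98% downwards. In mm9 the file places their probes at chr16:97782327-97782386 for Mx2, chr3:142300719-142300778 for Gbp2, chr8:74058603-74058662 for Bst2 and chr7:148155455-148155514 for Ifitm1. Those of the other 4 lie at chr11:53590715-53590774 for Irf1, chr7:148195591-148195650 for Ifitm3, chr11:101319011-101319070 for Ifi35 and chr16:23613668-23613727 for Rtp4. The median log2 difference, CKO minus wild type, was 0.91 over the 17 members (1.89-fold higher) and -0.12 over all measured genes, and 14 of the 17 lay above the latter. The member median is the value of Irf8, whose other probe differed by -0.95, and the values on either side were 0.59 (Trim25) and 1.00 (Rtp4). The excesses of the 8 genes were modest, from 2.01-fold for Rtp4 to 3.24-fold for Mx2, and they came from dim to middling spots of at most 246 units.

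The count of 8 depended on how background was handled. With normexp correction, which adds an offset of 50 to every spot and so compresses dim differences, 0 members passed 2-fold and the 8 genes differed by 0.49 to 0.80 on the log2 scale, still higher in CKO. Of all genes, 1.64% then passed upwards and 1.53% downwards. With each array scaled to its median, 4 members passed (Mx2, Gbp2, Bst2 and Ifitm1). That scaling gave 470 genes higher (3.3%) and 844 lower (5.93%) over the whole array, against 584 and 566 with the 75th percentile.

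**Figure D1:**
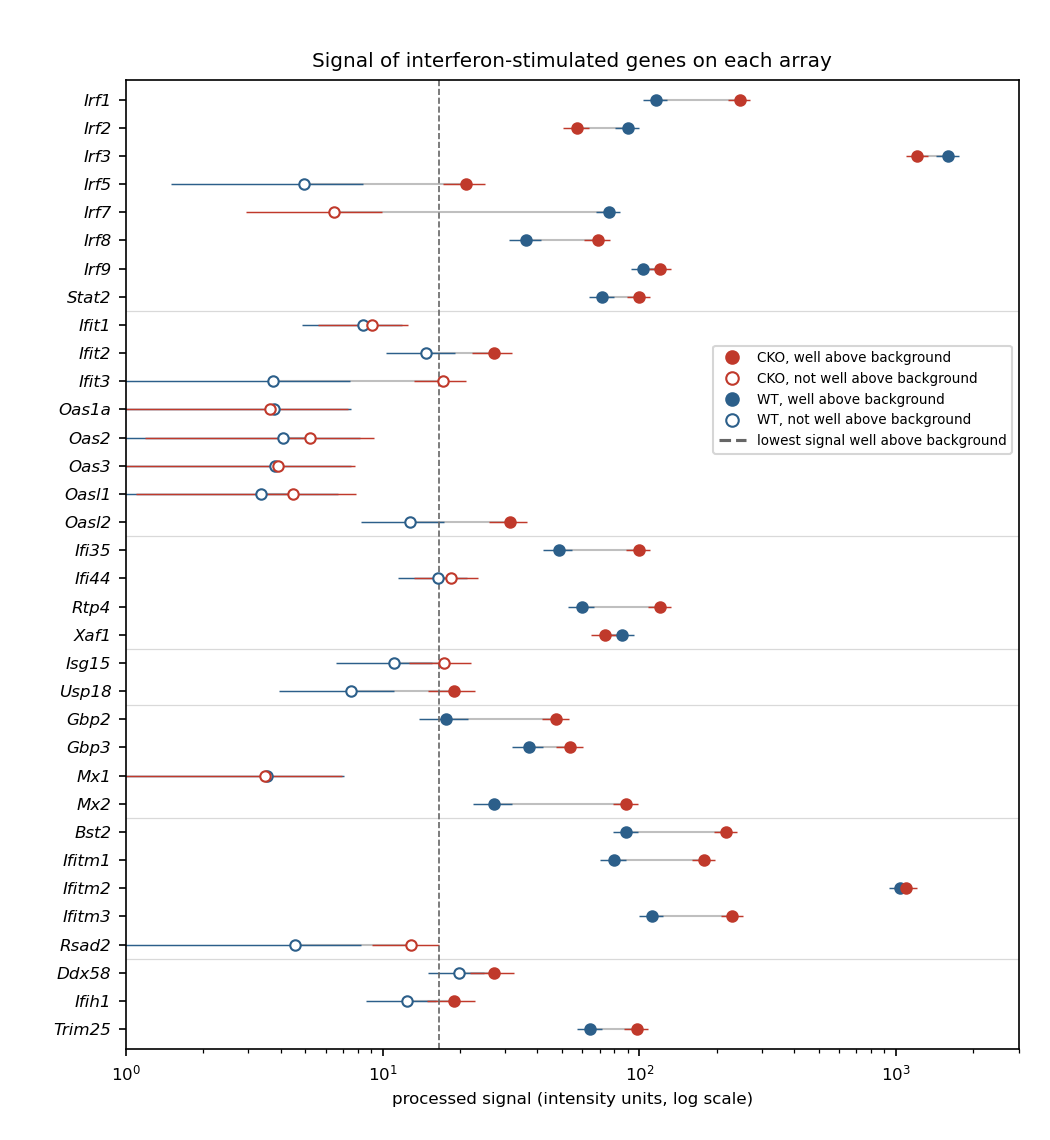
Processed signal of each of the 34 genes on the 2 arrays (log axis, intensity units), grouped by role, with bars for the scanner software's spot error (lower arms that pass the left edge are cut off). Filled points are well above background. CKO lies to the right of wild type in 14 of the 17 genes filled on both arrays, and Irf7 is the gene filled in wild type only.

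The transcription factors of the pathway differed among themselves. Irf1, an activator that interferon gamma induces directly, read 246 ± 24.9 units in CKO and 116 ± 12.2 in wild type, a log2 difference of 1.08 with a spot error of 0.21. The wild-type signal was thus below that of CKO by more than both errors. Stat2, the partner that ties the type I receptor to gene activation, read 99.8 ± 10.6 and 71.4 ± 7.97 units, 1.39-fold higher in CKO, and Irf9, the DNA-binding part of the same complex, read 121 ± 12.6 and 104 ± 10.96 units. Irf9 was therefore level within its spot error (log2 difference 0.21, error 0.21).

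Irf3, which is held inactive in the cytoplasm until RNA or DNA sensors activate it, had a signal of 1210 ± 121 units in CKO and 1596 ± 160 in wild type. This probe was 1.33-fold lower in CKO, whereas the other measured Irf3 probe was higher (97.4 against 77.8 units, log2 difference 0.31). Irf2, which can oppose Irf1 at shared sites, read 57.1 ± 6.71 and 90.0 ± 9.64 units, 1.59-fold lower in CKO and the lowest difference of the 17 (-0.67). Irf8, a factor of macrophage and dendritic cell development, read 68.8 ± 7.76 and 36.3 ± 5.15 units, 1.89-fold higher in CKO. Its other probe went the opposite way, at 17.7 units in CKO (not well above background) and 34.1 in wild type, so the direction for Irf8 rests on the choice of probe. Irf5, a factor of Toll-like receptor signalling in macrophages, was well above background in CKO only, with 21.1 ± 3.97 units against 4.96 ± 3.46, or at least 1.27-fold higher.

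Irf7, which amplifies the type I interferon response and is itself an interferon-induced gene, stood against this pattern. Its single probe read 75.9 ± 8.35 units in wild type and 6.45 ± 3.51 in CKO, where it was not well above background. Irf7 was thus lower in CKO by at least 4.63-fold, a bound set at 16.5 units, the lowest signal well above background on that array. Of the 861 genes of the array seen in wild type only, 96.4% had a smaller at-least fold. The wild-type spot had a mean pixel of 144.5 and a median of 135 units over 66 pixels, on a local background of 38. That gap of 7.04% between mean and median was the largest of the 102 member spots, the next being 4.57%, although the software set no outlier mark. The part of this skew in the Irf7 reading was not tested. With normexp the log2 difference was -0.91 and in the authors' deposited table it was -3.88.

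The Irf7 probe is shown because it alone carries that reading. It is 60 bases long and its mm9 position, chr7:148450664-148451014 on the minus strand, covers 351 bases of the chromosome, so it crosses a splice junction and reads spliced RNA.
Irf7 probe: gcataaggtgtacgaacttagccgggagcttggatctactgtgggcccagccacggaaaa
Of 12 other named genes with a probe within 100 kb of it, a window chosen after the Irf7 value was seen, 10 were measured, with log2 differences from -1.10 to 1.41. Of these, 3 differed by at least 2-fold, Sct higher and Drd4 and Tmem80 lower, while Phrf1 and Deaf1 differed by 0.06 and 0.01. Over all measured genes, 4.11% passed 2-fold upwards and 3.98% downwards.

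Among genes measured on both arrays, GTPases had the widest differences. Mx2, a dynamin-like antiviral GTPase, read 88.8 ± 9.75 units in CKO and 27.2 ± 4.78 in wild type, a log2 difference of 1.70 with a spot error of 0.30, and 98.7% of all measured genes had a lower difference. Its neighbour Mx1, a nuclear member of the family in mouse, was at 3.47 and 3.56 units with neither probe well above background. The paired genes therefore parted: one was read on both arrays and the other on neither. Gbp2, a guanylate-binding protein that attacks the vacuoles of intracellular microbes, read 47.5 ± 5.80 and 17.6 ± 3.80 units, 2.68-fold higher in CKO. Gbp3, a close relative, read 53.9 ± 6.41 and 37.0 ± 5.02 units, 1.45-fold higher. Both Gbp probes lie within 64.7 kb on chromosome 3, and in wild type Gbp2 was just above the lowest signal well above background there, 16.6 units.

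Of the membrane proteins that hold back viruses at entry or release, 3 of 5 passed 2-fold, higher in CKO. Bst2 (tetherin), which ties budding virions to the cell surface, read 218 ± 22.1 units in CKO and 88.8 ± 9.78 in wild type, 2.43-fold higher. Ifitm1 and Ifitm3, proteins that hinder fusion of viral envelopes, read 179 ± 18.5 against 79.8 ± 9.30 units and 230 ± 23.3 against 112 ± 11.7 units. Their log2 differences were 1.16 and 1.03. The probes of all 3 Ifitm genes lie within 54.7 kb of chromosome 7, Ifitm1 in the middle, and Ifitm2 read 1094 ± 109 units in CKO and 1040 ± 104 in wild type, a difference of 0.06 that was within its spot error and became -0.06 with median scaling. So neighbouring genes of the family did not show differences of one size. A second Ifitm2 probe, which the file places elsewhere on chromosome 7, differed by 0.25, and since the Ifitm genes are similar in sequence, some signal may be shared between them. Rsad2 (viperin), an enzyme that makes a chain-terminating nucleotide, was not well above background with any of its 3 probes.

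The genes that bind or destroy foreign RNA were the least readable group. None of the 8 was measured on both arrays. Ifit2 and Oasl2 were seen in CKO only, at 27.0 ± 4.83 units against 14.7 ± 4.42 and at 31.4 ± 5.28 units against 12.8 ± 4.504, or at least 1.62-fold and at least 1.88-fold higher. Of the Ifit proteins, Ifit1 clamps viral RNA that lacks the host cap, and the Oas enzymes make the second messenger that activates RNase L. Ifit1, Ifit3, Oas1a, Oas2, Oas3 and Oasl1 were on neither array. Ifit3 read 17.2 ± 4.004 units in CKO and 3.73 ± 3.71 in wild type, and the Oas1a probe read 3.65 and 3.77.

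Isg15, a ubiquitin-like protein that is among the most inducible products of the pathway, read 17.3 ± 4.66 units in CKO and 11.1 ± 4.48 in wild type and was not well above background on either. Usp18, the protease that removes it from proteins and that also damps the type I receptor, was seen in CKO only (18.9 ± 3.89 against 7.52 ± 3.57 units, at least 1.13-fold higher). Across the 10 genes on neither array, signals ran from 3.47 to 18.4 units in CKO and from 3.37 to 16.4 in wild type. Since none of them was well above background, no fold is given and no difference is called. The widest readings were those of Ifit3 (log2 difference 2.20, spot error 1.48) and Rsad2 (1.49, error 1.24). With normexp they were 0.30 and 0.16.

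Among the cytoplasmic RNA sensors, Ddx58 (RIG-I) read 27.2 ± 5.26 units in CKO and 19.9 ± 4.85 in wild type with the brightest of its 4 probes, and Ifih1 (MDA5) read 18.9 ± 3.998 and 12.4 ± 3.78. Both were well above background in CKO only, close to the limit. The fold was 1.36 for Ddx58, set against its own wild-type reading, and at least 1.13 for Ifih1. Trim25, a ubiquitin ligase that acts on RIG-I signalling, was measured at 97.7 ± 10.3 and 64.5 ± 7.26 units, 1.51-fold higher in CKO. Trim25 thus read higher in CKO by more than its spot error (log2 difference 0.59, error 0.22). Ddx58 was level within its spot error (0.44, error 0.45), and its difference became -0.07 with normexp. Ifih1 differed by 0.60 with a spot error of 0.53.

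The other effectors included both genes nearest the threshold. Rtp4, a chaperone-like protein with antiviral action, read 120 ± 12.6 and 59.6 ± 7.11 units, a log2 difference of 1.00, and Ifi35, which is released as a danger signal, read 99.4 ± 10.67 and 48.5 ± 6.24 units, a difference of 1.02. Just under the threshold came Irf8 at 0.91. Xaf1, a pro-apoptotic antagonist of XIAP, read 73.4 ± 8.48 and 85.5 ± 9.57 units, 1.17-fold lower in CKO and within its spot error (-0.23, error 0.23). Ifi44 was well above background on neither array. In 14 of the 17 measured genes the difference was more than 2 times its own spot error, and in the 8 called genes from 3.98 to 5.93 times, but this error covers the spot and not the animals.

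**Figure D2:**
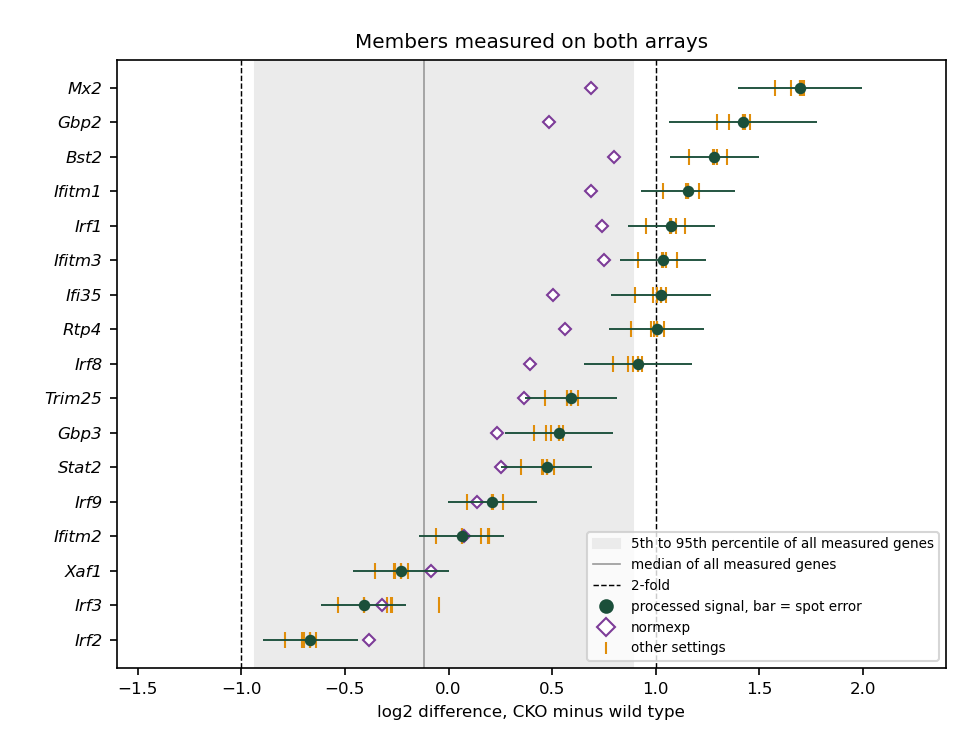
Log2 difference, CKO minus wild type, of the 17 members measured on both arrays, with the spot error as a bar, under normexp (diamonds) and under the other settings (ticks); the grey band holds the 5th to 95th percentile of all measured genes (-0.93 to 0.89). The 8 genes at the top lie past 2-fold with the processed signal, and every diamond lies below 2-fold.

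The genes of the interferons themselves were also read from a list. Of the 13 ligand genes on the array, 9 were well above background on neither array, among them Ifnb1, at 4.67 units in CKO and 4.85 in wild type, and Ifng, at 3.73 and 3.78. The other 4 were Ifna9, Ifna13, Ifna7 and Ifnz, with log2 differences of -0.44, -0.43, -0.18 and 0.18. The interferon alpha genes are close copies of each other, so these probes cannot be tied to single genes with certainty. No ligand gene passed 2-fold in either direction.

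Receptors and signalling genes were measured for 18 of 20 members, with a median log2 difference of 0.06 that became -0.06 with median scaling. Of the 18, 1 (5.56%) passed 2-fold upwards and 0 downwards, beside 4.11% and 3.98% of all measured genes. The phosphatase gene Ptpn6 differed by -0.64, the interferon gamma receptor chain Ifngr1 by 0.58 and the feedback inhibitor Socs1 by 0.54, each short of 2-fold. The type I receptor chains Ifnar1 and Ifnar2 read 142 against 131 and 495 against 433 units, differences of 0.11 and 0.18.

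Nucleic acid sensors and adaptors had a median of 0.20 over 21 measured genes, and 3 of these (14.3%) passed 2-fold upwards and 0 downwards. Unc93b1, the chaperone that carries Toll-like receptors to endosomes, was 5.83-fold higher (217 against 37.0 units), Ifi204 2.35-fold and Sting1, the adaptor of cytosolic DNA sensing, 2.30-fold. Ticam1, the adaptor of Tlr3, was 1.79-fold higher. Of the Toll-like receptor genes in the list, Tlr9 was measured at 905 and 1128 units (1.25-fold lower in CKO), and Tlr3, Tlr7 and Tlr8 were well above background on neither array.

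Further interferon-induced genes were listed for their known response, but with earlier results of these data known. They had a median of 0.15 over 25 measured of 59 genes, with 3 (12%) past 2-fold upwards and 0 downwards. Ly6e was 2.97-fold higher in CKO, Uba7, the activating enzyme for Isg15, 2.33-fold, the immunity-related GTPase gene Irgm1 2.15-fold and Znfx1 1.84-fold. Another 14 of the 59 (23.7%) were well above background in CKO only and 0 in wild type only, against 3.91% and 3.15% of all genes. Of the 14, 8 had an at-least fold of 2 or more, as did 34.8% of the 1070 genes of the array seen in CKO only. The highest of the 14 were Ifi27l2a (at least 4.26-fold, 71.1 against 7.04 units), Parp14 (at least 4.25-fold), Iigp1 (at least 3.71-fold) and Irgm2 (at least 3.28-fold). Cxcl9, Cxcl10 and Cxcl11, chemokine genes with strong interferon induction, were on neither array.

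**Figure D3:**
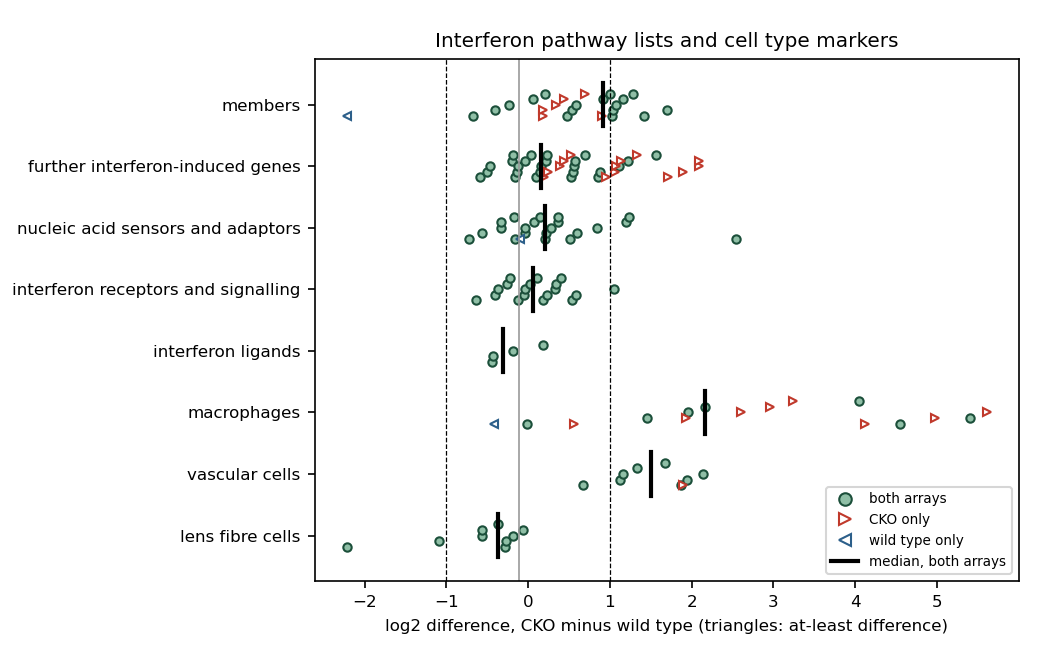
Log2 difference, CKO minus wild type, of single genes in the interferon lists and in 3 cell type marker lists; circles are genes measured on both arrays, triangles at-least differences of genes seen on 1 array, thick bars list medians, the grey line the median of all measured genes and dashed lines 2-fold. The members centre on 0.91 (the value of Irf8), the 4 other interferon lists between -0.31 and 0.20, and the macrophage markers on 2.16.

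Markers of several cell types also differed between the 2 arrays. Of 16 macrophage markers, 6 of 7 measured were at least 2-fold higher in CKO, 8 were seen in CKO only and 1, Itgam, in wild type only. Their signals summed to 6560 units in CKO and 1070 in wild type, with the most from Ctss, 42.3-fold higher, and C1qc, seen in CKO only and at least 48.8-fold higher. Tyrobp was 16.6-fold higher, and C1qb was nearly equal (665 against 668 units). Vascular markers summed to 5640 and 1830 units, with 7 of 8 measured at least 2-fold higher (Cldn5 3.19-fold, Vwf 4.41-fold, Emcn 2.51-fold). Of 7 markers of ocular mesenchyme, 3 of 3 measured were at least 2-fold higher (Mgp 7.93-fold, Col1a2 7.08-fold, Col3a1 28.5-fold). Another 3 were seen in CKO only and 1 on neither array, and the sums were 11600 and 572 units. Of those in CKO only, Dcn read 5740 against 4.80 units (at least 344-fold higher). Lum read 886 against 3.54 units and Col1a1 240 against 4.35. Pigment cell markers summed to 432 and 85.8 units, with Dct 10.6-fold and Pmel 2.83-fold higher.

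Lymphocyte markers summed to 1080 and 855 units, with Nkg7 1.35-fold higher, Cd79a 2.79-fold higher and Cd3e 1.30-fold lower. The B cell marker Ms4a1 was seen in wild type only (65.3 against 8.99 units, at least 3.99-fold lower in CKO) and Cd79b in CKO only, and 7 of 12, Cd4 and Cd8a included, were on neither array. Dendritic cell markers summed to 300 and 122 units, with Xcr1 at 72.9 and 71.4, Itgax seen in CKO only (186 against 4.22 units, at least 11.2-fold) and Zbtb46 in wild type only (18.9 against 26.8 units), and the plasmacytoid marker Siglech was on neither array. Neutrophil markers summed to 580 and 1080 units, nearly all from Mpo (1.89-fold lower), while S100a8 and S100a9 were on neither array. Fibre cell markers summed lower in CKO, at 1260000 against 1480000 units, and those of the lens epithelium at 30900 against 59800, with Sfrp1 1.84-fold and Clu 2.34-fold lower and Pax6 at 1442 against 1796 units. Sfrp1 and Clu make up most of that sum, while Foxe3 was 1.47-fold higher and Cdh1 and Pdgfra differed by 0.02 and -0.08 on the log2 scale. The brightest fibre markers, Cryba1, Crybb3 and Cryaa, were 1.05-fold, 1.21-fold and 1.13-fold lower, and 2 of the 9, Lgsn (4.64-fold) and Dnase2b (2.13-fold), were lower by more than 2-fold. In whole lenses, fewer cells of a type and less RNA per cell cannot be told apart, and the part of these cells in the interferon-stimulated signal was not tested.

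The promoters of the members were read for letters of both motifs named above. RefSeq promoter windows (GRCm38.p6, 250 bases before to 50 after the annotated start) were held for 29 of the 34 genes, and the other 5 were Oas2, Mx1, Mx2, Usp18 and Rtp4. An ISRE-like match, which is GAAA, any 2 bases and GAAA again on either strand, was in the windows of 15 of the 29 (51.7%) and in 3.99% of all 27025 genes with a window. The longer form, with CT directly after the second GAAA, contains the shorter and was found in 8 (27.6%) and in 0.303%. A GAS-like match, TTC, any 3 bases and GAA, was found in 8 (27.6%) against 9.55%. These genes were listed as interferon-stimulated, so a high share of ISRE-like matches describes how they are known and not what happened in these lenses.

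Genes that were not well above background held matches too. An ISRE-like match was held by 7 of 15 genes measured on both arrays, 2 of 5 seen in CKO only and 6 of 8 on neither array, and by 3 of the 6 genes past 2-fold that have a window. Printed here are the 150 bases before the start, 5′ to 3′ on the gene's strand, with ISRE-like matches in capitals. Gbp2 and Bst2 are shown as genes more than 2-fold higher in CKO. Isg15 and Ifit1 are shown as genes with matches that were well above background on neither array, Irf1 for its GAS-like match and Irf7 for the opposite reading. The positions are chr3:142620513-142620662 (plus strand) for Gbp2, chr8:71537473-71537622 (minus) for Bst2, chr4:156200819-156200968 (minus) for Isg15, chr19:34640739-34640888 (plus) for Ifit1, chr11:53769864-53770013 (plus, the start farther upstream of 2) for Irf1 and chr7:141266425-141266574 (minus) for Irf7.
Gbp2 promoter: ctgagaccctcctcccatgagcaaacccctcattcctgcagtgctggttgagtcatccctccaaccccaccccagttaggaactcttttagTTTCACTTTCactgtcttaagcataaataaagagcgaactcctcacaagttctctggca
Bst2 promoter: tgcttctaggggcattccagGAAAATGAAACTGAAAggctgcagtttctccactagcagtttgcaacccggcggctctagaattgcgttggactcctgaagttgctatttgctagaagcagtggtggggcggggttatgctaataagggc
Isg15 promoter: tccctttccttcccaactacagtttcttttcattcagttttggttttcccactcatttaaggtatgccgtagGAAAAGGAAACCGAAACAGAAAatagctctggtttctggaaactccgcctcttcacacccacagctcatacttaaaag
Ifit1 promoter: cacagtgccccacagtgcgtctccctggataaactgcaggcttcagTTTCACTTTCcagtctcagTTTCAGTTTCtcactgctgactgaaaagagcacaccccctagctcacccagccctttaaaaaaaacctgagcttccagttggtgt
Irf1 promoter: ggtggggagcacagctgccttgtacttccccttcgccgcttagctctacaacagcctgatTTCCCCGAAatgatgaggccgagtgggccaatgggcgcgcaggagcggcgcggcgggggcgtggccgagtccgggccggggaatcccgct
Irf7 promoter: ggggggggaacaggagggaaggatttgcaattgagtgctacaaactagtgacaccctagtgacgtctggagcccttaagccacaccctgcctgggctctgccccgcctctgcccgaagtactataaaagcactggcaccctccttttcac
Isg15 carried 3 overlapping ISRE-like matches and Bst2 and Ifit1 carried 2 each, the Bst2 pair overlapping by 4 bases. Gbp2 had 1, with its first base 59 bases before the start. In Irf1 the capitals mark the GAS-like match, 90 bases before the start, and Irf7 had neither motif in its full window. A match is a description of these letters and not a bound site.

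**Figure D4:**
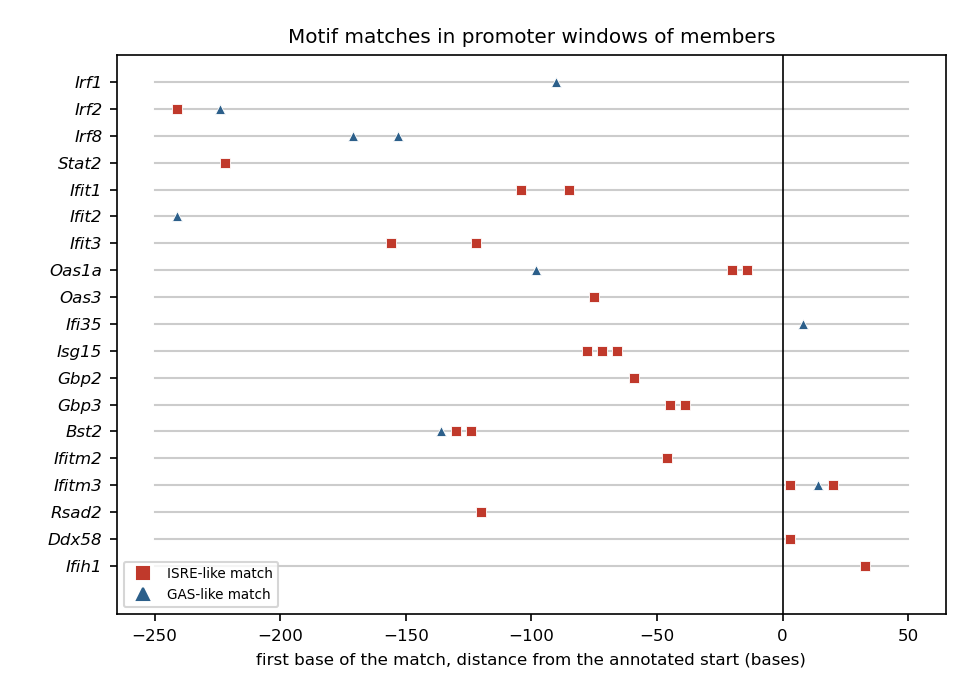
Position of ISRE-like matches (squares) and GAS-like matches (triangles) in the promoter windows of the 19 members that hold either, as the distance of the first base from the annotated start in bases. The matches of Isg15, Bst2, Gbp2 and Ifit1 lie within the 150 bases before the start, those of Irf2 and Stat2 farther upstream and those of Ddx58, Ifih1, Ifitm3 and Ifi35 after it.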

How the data were processed

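The members and the gene lists were chosen with earlier results of these data known. Per the labels' protocols, total RNA was purified, amplified and labelled with Cy3. The authors deposited scanner files in which the intensity of each spot, per the file headers, had been background-subtracted and detrended by Feature Extraction 10.7.3.1 (protocol GE1_107_Sep09, design 014868, mm9 positions) and not normalized between arrays. The log2 table that the authors deposited beside them has its median at 4.87 on both arrays and served as an alternative. Its differences ran with those of the scanner files (r = 0.988 across genes), and the sources used here do not give its scaling.

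From the processed intensity, log2 was taken and each array's 75th percentile subtracted. Control and outlier spots were left out, spots of a probe averaged, and symbols updated with a RefSeq table (GRCm38.p6). A gene seen on 1 array got an at-least fold: its signal was set against the dimmest well-above-background signal of the other array, or against its own signal there if that was higher. Differences count when at least 2-fold. Spot errors are those of the scanner software, combined over both arrays. Over 126 probes printed as repeated spots, the SD of a single spot's log2 difference was 0.23. Split at their median level, it was 0.066 for the brighter of these probes and 0.31 for the dimmer. Between measured probes of the same gene the SD was 0.36. All 34 members are named. From each wider list come the 4 largest differences and up to 4 at-least folds over 2, and from each marker list its brightest measured genes. One gene that this rule names is not reported here. Other genes were named after their values were seen. The choice of a probe per gene and the 2-fold cut were tested on simulated differences. Detection, scaling, background handling and at-least folds were not part of that test. Normexp used limma 3.58.1 in R 4.3.3, and the rest Python 3.11.15 with pandas 2.3.3 and statsmodels 0.14.6.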

Additional observations from a re-analysis of the deposited data

How the results depend on the processing

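No paired analysis was possible because each genotype has 1 array, and for the same reason no replicate could be left out. With normexp background correction the median of the members was 0.39, the count at least 2-fold higher was 0, and the ligand median was -0.042. Of the 17 members, 12 moved by more than the single-spot SD over all repeated probes, 0.23. With median scaling the count was 4. With no filter on detection, over all 34 genes, the median was 0.59 with 13 higher (7.41% of all genes) and 1 lower (6.41%), and with genes detected on 1 array or both, 11 were higher (7.89%) and 1 lower (6.45%); in each case the lower gene was Irf7. Only Irf3 and Ifitm2 lay above the median probe level, with a median of -0.17 beside -0.15 for all genes there. Of them, 0 were higher (2.26% of all genes) and 0 lower (3.15%). Setting the 7 genes detected on a single array to their bound, the median was 0.56. At 1.5-fold 10 were higher (9.36% of all genes) and 1, Irf2, lower (14.7%), and at 3-fold 1 (Mx2) was higher (1.48%). The share of promoters with an ISRE-like match was 27.6% with the longer motif. Quantile normalization, intensity-dependent centring and the deposited log2 table gave medians of 0.87 to 0.93 and 6 to 8 genes higher, beside 4.16% to 4.57% of all genes. Dim signals limit the rest: 17 of the 34 genes were not well above background on 1 or both arrays.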
